A study of Mus musculus with 6 samples.

Results

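The genes described here are 10 splicing factor genes of the serine/arginine-rich (SR) family, Srsf1 to Srsf7, Srsf9, Srsf10 and Srsf11. The rule for them uses Ensembl gene IDs and no measured value, and all 10 were found among the 22322 genes of the deposited table. The list itself was chosen with earlier results of these data known. The data are ribosome profiling counts, in which short mRNA fragments held by ribosomes (footprints) are sequenced and counted per gene. The libraries came from activated and from resting CD4+ T cells of mouse spleen and lymph nodes, 3 libraries of each. Both groups were from 6-week-old female C57BL/6J mice, purified by negative selection, with no genetic change named in the labels. Activation was with beads that carry antibodies to CD3 and CD28, and its length is not stated in the labels used here. All 6 libraries are labelled untreated and 0 h. The labels call them biological replicates 2, 3 and 4 of each group and do not say which animals or cultures they came from, so the p-values cover only library-to-library spread, which may be technical.

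SR proteins pair one or more RNA recognition motifs with a tail of arginine-serine repeats. They bind enhancer sequences in exons and recruit the U1 and U2 snRNPs, and SR protein kinases switch their location and activity through the repeats. Several also carry mRNA out of the nucleus or act on its translation. Many SR genes limit their own protein by including a poison exon or retaining an intron, which gives mRNA that is degraded by nonsense-mediated decay. In T cells, SR proteins are known for splicing of the phosphatase CD45, whose isoforms change after activation.

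The unit of all levels is the footprint in coding sequence (CDS), counted per 1000000 and scaled between libraries by TMM factors (CPM). Coding lengths are not among the tables used here, so levels of different genes are not ranked against each other. CDS counts of a library summed to between 437200 and 1074656, and a member had between 25 and 823 CDS counts in a library. Members had between 302 and 2711 CDS counts over all 6 libraries. The table pairs no IDs with symbols and the gene table given here lists no Ensembl IDs, so the names of the members come from the list that defined them. For the same reason neither markers of the T cell label nor other splicing genes (kinases, U1 and U2 proteins, decay factors) could be looked up, and they are not analysed here.

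Most SR genes carried more CDS footprints in activated than in resting cells. Of the 10 members, 9 rose and 0 fell (edgeR quasi-likelihood test, adjusted p under 0.05 over all 6775 genes tested), where 24.1% of all genes tested rose and 21.6% fell, 45.7% together. The exception was Srsf4. The 10 members had a median log2 change of 0.96, and all genes tested had a median of -0.04. By at least 2-fold, 4 members rose (Srsf2, Srsf6, Srsf7 and Srsf9), against 14.7% of all genes tested. That count depends on scaling, as TMM factors were 0.880 to 0.894 in activated and 1.12 to 1.13 in resting libraries. With library totals alone, Srsf9 had a log2 change of 0.84, below 2-fold. In 9 members every activated library was above every resting one, as in 28.1% of all genes tested (54.8% in either direction). A change in footprints cannot be split here into mRNA amount and ribosomes per mRNA, and in such bulk libraries fewer cells of a type and less RNA per cell cannot be told apart.

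**Figure D1:**
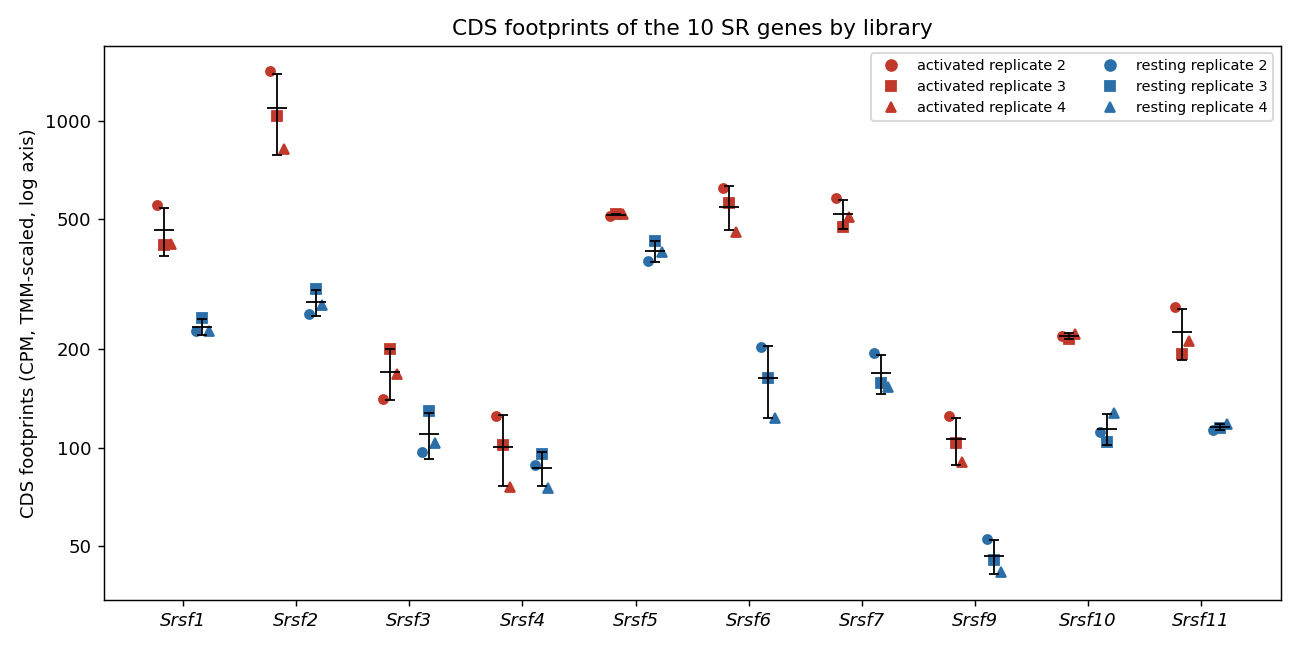
CDS footprints in CPM (log axis) of each SR gene in every library, activated in red and resting in blue, with bars for mean ± SD over 3 libraries. The groups are apart for every gene but Srsf4, and the widest gap is that of Srsf2, at 823 CPM or more in activated and 307 CPM or less in resting libraries.

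The promoter windows of the members in RefSeq (GRCm38.p6, 250 bases before to 50 after an annotated start) were searched on both strands for 7 short motifs, and all 10 members had a window. TGACG is the first 5 bases of the 8-base cAMP response element (CRE) and is labelled CRE core below. It was found in 7 of 10 members, against 23% of 27025 genes. The 3 without it were Srsf4, Srsf7 and Srsf9. The full element TGACGTCA and the E-box CACGTG were found in 0 of 10 members, against 2.03% and 8.09% of genes. TATAAA was found in 2 of 10 members, against 15.7% of genes, CCAAT in 4 against 41.1%, the ETS core CCGGAAG in 4 against 9.93% and the NRF1 core GCATGCGC in 2 against 3.05%. TGACG is part of TGACGTCA, and none of the other motifs contain each other. A gene was counted if any of its windows held the motif. The shares are over all genes with a window, whether or not they had footprints here, unlike the shares of genes tested given above. A match describes letters only, and footprint counts do not measure transcription.

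Windows of 30 bases with TATAAA or TGACG are shown where they lie wholly before the start site of the RefSeq promoter window. That start is the outer end of the gene in Srsf3 and Srsf6, and lies 61 bases inside the gene span in Srsf11, 319 bases in Srsf10, 581 bases in Srsf2 and 874 bases in Srsf1. The windows of Srsf1, Srsf2 and Srsf10 are therefore within the gene spans given with each gene. They run 5' to 3' on the strand of the gene, with the motif, or its reverse complement CGTCA, in capitals.
Srsf2 TATAAA at chr11:116853106-116853135, minus strand: tgtaagggtgggTATAAAtgcgcgctgggg
Srsf3 TATAAA at chr17:29032630-29032659, plus strand: agagcagggtgcTATAAAtagggcgagggg
Srsf1 CRE core at chr11:88047267-88047296, plus strand: gcaacagctcagCGTCAtctatctccgccc
Srsf3 CRE core at chr17:29032505-29032534, plus strand: accccacccaccTGACGgaacggccggcgc
Srsf3 CRE core at chr17:29032567-29032596, plus strand: ttgtagcgcttaCGTCAcagcctgcgccgc
Srsf6 CRE core at chr2:162931447-162931476, plus strand: gctgcgcgacgaCGTCAcgcgctgcgccgc
Srsf10 CRE core at chr4:135855961-135855990, plus strand: ccgcggtgcgcgCGTCAggccggcggcgcg
Srsf11 CRE core at chr3:158036671-158036700, minus strand: cgaccacggctgTGACGtttcaaggtgcca
TATAAA ended 23 bases before that start in Srsf2 and 12 bases before it in Srsf3, and these were the members with the highest and the third-lowest log2 change. Members with TGACG had log2 changes of 0.37 to 1.96, and those without it 0.19 to 1.63, so the ranges overlapped.

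Srsf2, also known as SC35, stays in the nucleus more than most of the family and marks the nuclear speckles where splicing factors collect. Its gene (ENSMUSG00000034120) lies at chr11:116849897-116853675 (RefSeq, GRCm38.p6). It had 1422, 1035 and 823 CPM in activated replicates 2, 3 and 4, against 257, 307 and 274 CPM in resting replicates 2, 3 and 4. Every activated library was far above every resting one, although the activated libraries spread more among themselves. The log2 change of 1.96 (SE 0.19, edgeR adjusted p = 4.89e-07) was the highest of the family, and 4.41% of all genes tested had a higher one. RefSeq places Mfsd11, a protein-coding gene, over 1465 bases of the Srsf2 gene span. Overlap of their coding sequences was not looked up. The strand setting is not stated, so how records there were assigned is not known.

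Srsf4, Srsf5 and Srsf6 form the branch of the family with a pair of RNA recognition motifs and long serine-arginine tails, and their log2 changes ranged from 0.19 to 1.75. Srsf6 (ENSMUSG00000016921, chr2:162931508-162937121) had 623, 562 and 457 CPM in activated libraries, against 204, 164 and 123 CPM in resting libraries. Its lowest activated library was thus above its highest resting one by 253 CPM, and the log2 change was 1.75 (SE 0.19, edgeR adjusted p = 1.58e-06). Srsf5 (ENSMUSG00000021134, chr12:80945495-80950507) was steadier, with 514, 519 and 519 CPM in activated and 372, 430 and 398 CPM in resting libraries. Its groups did not overlap, but the log2 change was only 0.37 (SE 0.14, edgeR adjusted p = 0.0386). Srsf4 (ENSMUSG00000028911, chr4:131873530-131901725), whose serine-arginine tail is among the longest of the family, had 125, 102 and 75.6 CPM in activated and 88.3, 95.7 and 75.3 CPM in resting libraries. These ranges overlapped, and the log2 change of 0.19 (SE 0.22, edgeR adjusted p = 0.500) did not pass the test; it was -0.15 with library totals alone. RefSeq places the lncRNA gene Gm12992 over 2248 bases of the Srsf4 locus. The call of Srsf5 was lost with library totals in place of TMM (log2 change 0.03, edgeR adjusted p = 0.861, where the median of all genes was -0.38), with upper quartile factors (adjusted p = 0.186), in DESeq2 (adjusted p = 0.0620), and without activated replicate 3 or 4 or any 1 of the resting libraries (edgeR adjusted p = 0.0534 to 0.134).

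Srsf3 and Srsf7 are small shuttling SR proteins that serve as adaptors for the mRNA export receptor NXF1, and Srsf7 carries a zinc knuckle beside its RNA recognition motif. Srsf7 (ENSMUSG00000024097, chr17:80200080-80207369) had 579, 474 and 510 CPM in activated libraries, against 196, 157 and 154 CPM in resting libraries. All activated values were thus more than 2-fold above all resting values, and the log2 change was 1.63 (SE 0.16, edgeR adjusted p = 5.92e-07). Srsf3 (ENSMUSG00000071172, chr17:29032660-29043372) had 141, 201 and 168 CPM in activated and 96.7, 130 and 103 CPM in resting libraries. The groups were close, with 11.1 CPM between the lowest activated and the highest resting library, and the log2 change was 0.64 (SE 0.19, edgeR adjusted p = 0.0113). That call was lost in the other CDS column and in exon counts, as described with the border counts, and also with library totals alone (log2 change 0.30, edgeR adjusted p = 0.189), without activated replicate 3 (adjusted p = 0.0575) and without resting replicate 2 (adjusted p = 0.0527). RefSeq also lists a pseudogene, Srsf3-ps, on chromosome 11, and records without a unique alignment are counted on no gene. Pseudogenes not named after an Srsf gene were not looked for, for Srsf3 or any other member.

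Srsf1 and Srsf9 share a layout with a canonical and an atypical RNA recognition motif, and Srsf9 has a short serine-arginine tail. Srsf1 (ENSMUSG00000018379, chr11:88046499-88053757) is among the earliest SR proteins purified and a regulator of splice site choice. It had 554, 419 and 420 CPM in activated libraries, against 227, 250 and 227 CPM in resting libraries, which is a log2 difference of 0.97 (SE 0.16, edgeR adjusted p = 0.000107). Srsf9 (ENSMUSG00000029538, chr5:115327163-115333843) had 125, 103 and 90.5 CPM in activated libraries, against 52.6, 45.4 and 41.5 CPM in resting libraries. Its log2 change of 1.18 (SE 0.22, edgeR adjusted p = 0.000371) rests on 25 to 28 counts in the resting libraries. Both genes were higher in all activated libraries than in any resting one. RefSeq places Gatc, a protein-coding gene, over 602 bases of the Srsf9 locus.

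Srsf10 and Srsf11 are the SR-related members. Srsf10 acts as a general splicing repressor once its tail is dephosphorylated, as after heat shock, and Srsf11 binds the large subunit of the splicing factor U2AF. Srsf10 (ENSMUSG00000028676, chr4:135855752-135869908) had 220, 215 and 224 CPM in activated libraries, against 111, 104 and 128 CPM in resting libraries. Srsf11 (ENSMUSG00000055436, chr3:158010915-158036667) had 270, 194 and 212 CPM in activated libraries, against 114, 115 and 118 CPM in resting libraries. Both rose without overlap and by almost the same amount, with log2 changes of 0.94 (SE 0.16, edgeR adjusted p = 0.000202) for Srsf10 and 0.94 (SE 0.17, edgeR adjusted p = 0.000359) for Srsf11.

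In order of log2 change the members ran Srsf2, Srsf6, Srsf7, Srsf9, Srsf1, Srsf11, Srsf10, Srsf3, Srsf5 and Srsf4. Neighbours in that order differed by no more than the sum of their SEs, except Srsf7 and Srsf9, whose changes were 1.63 and 1.18. Srsf2, Srsf6, Srsf7, Srsf9, Srsf1, Srsf10 and Srsf11 passed the threshold in each of the 16 alternative settings run. The lowest log2 change of these 7 under any of them was 0.60 (Srsf10, library totals alone), and the highest adjusted p was 0.00788 (Srsf11).

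**Figure D2:**
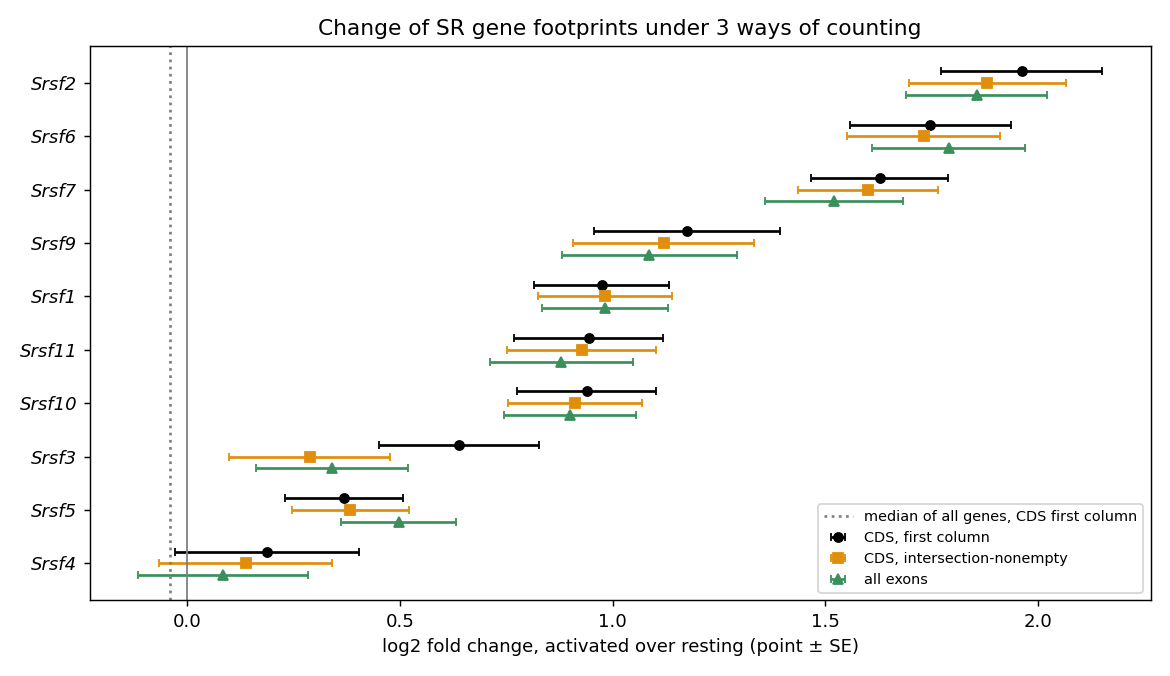
Log2 fold change, activated over resting, with SE, of each SR gene in the first CDS column (black), the intersection-nonempty CDS column (orange) and all exon counts (green). The 3 ways of counting lie within 1 SE of each other except for Srsf3, at 0.64, 0.29 and 0.34.

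The family took a larger part of all CDS footprints in activated cells. The 10 genes together held 0.394%, 0.334% and 0.306% of the CDS counts in activated replicates 2, 3 and 4, against 0.187%, 0.196% and 0.180% in resting replicates 2, 3 and 4. These shares use library totals and no TMM factors, and they did not overlap, at 0.344 ± 0.0448% in activated and 0.187 ± 0.00810% in resting cells (SD, n = 3). In counts this was 2013, 3041 and 3287 in activated and 817, 1108 and 1068 in resting libraries. The activated libraries were spread more widely, and the one with the fewest counts, replicate 2, had the highest share.

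The make-up of the family differed too, and shares within the family do not depend on scaling between libraries. Srsf2 made up 31.1%, 27.1% and 23.5% of the counts of the 10 genes in activated libraries, against 14.9%, 17.1% and 16.7% in resting libraries. With Srsf6 and Srsf7 added, the 3 genes held 54.2 ± 3.12% in activated and 35.5 ± 2.39% in resting cells (SD, n = 3). The most counted member of the resting libraries was Srsf5, which held 11.2%, 13.6% and 14.8% in activated libraries, against 21.7%, 23.9% and 24.3% in resting libraries. Srsf4 held 2.52 ± 0.312% in activated and 5.02 ± 0.384% in resting cells. Of the 10 members, 3 had a higher share without overlap in activated cells (Srsf2, Srsf6 and Srsf7) and 5 a lower one (Srsf1, Srsf3, Srsf4, Srsf5 and Srsf11). Shares within other gene sets were not worked out for comparison. Lack of overlap was common in these libraries, at 54.8% of all genes tested in CDS CPM, in either direction. The shares of Srsf9 and Srsf10 overlapped between the groups, at 2.67 ± 0.0763% in activated and 2.71 ± 0.307% in resting cells for Srsf9. The intersection-nonempty column widened the gap of Srsf3, whose mean share was 1.99 percentage points lower in activated cells by the first column and 5.86 by that one, and in exon counts the groups of Srsf7 overlapped. Shares sum to 100%, so a gain of one member lowers the others, and these values are given as a description with no test.

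**Figure D3:**
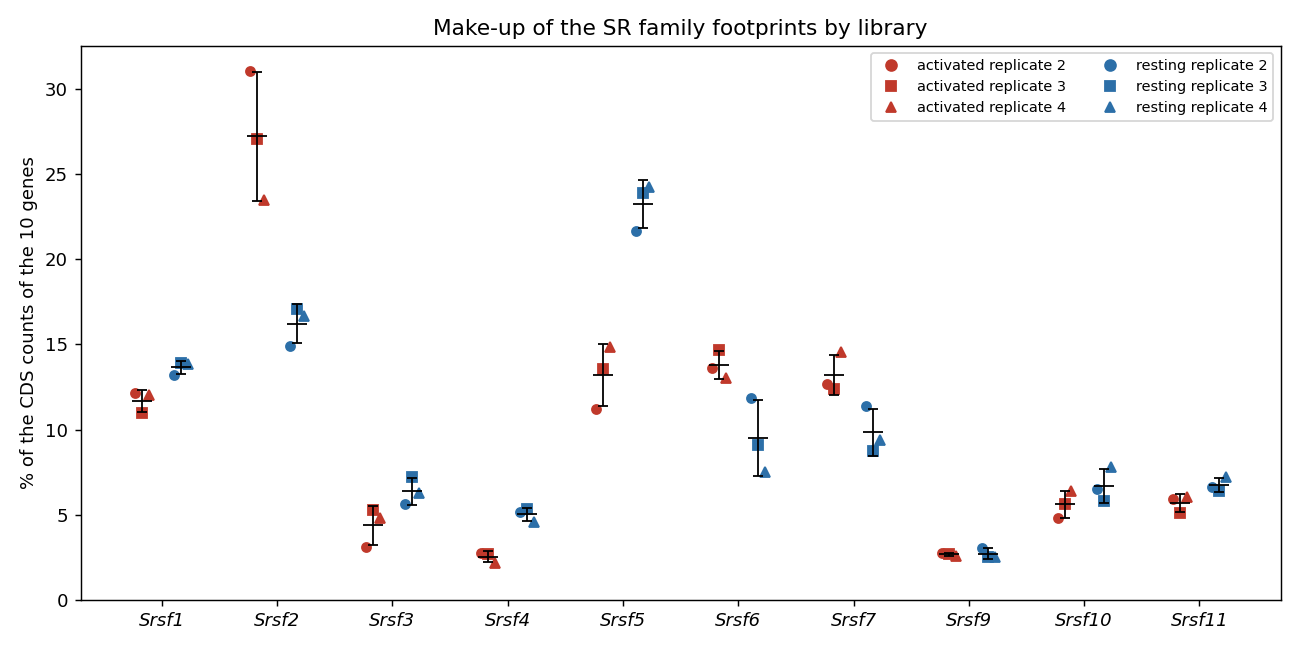
Percent of the CDS counts of the 10 SR genes that fell on each gene, by library, activated in red and resting in blue, with bars for mean ± SD over 3 libraries. Srsf2 held the largest share in the activated libraries, and Srsf5 the largest in the resting ones.

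The table holds a second CDS column, counted in HTSeq's intersection-nonempty mode, in which a record may also lie partly outside the CDS. For each gene this column was at or above the first one. The surplus, called border counts here, was 8.33 ± 0.567% of that column in activated and 10.2 ± 0.414% in resting cells over all other genes (SD, n = 3). Srsf3 stood out, with 48.3%, 43.5% and 59.0% of its counts at the border in activated replicates 2, 3 and 4, against 54.0%, 62.1% and 68.2% in resting replicates 2, 3 and 4. Over all 6 libraries the share was 56.3% for Srsf3, and 32 of 6023 genes with at least 100 counts had a higher one (0.531%). Srsf4 came next in the family with 16.98% over all libraries, and the other members had 5.73% to 12.7%. The files do not say on which edge of the CDS these records lay.

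The column chosen therefore decides the call of Srsf3. In the intersection-nonempty column Srsf3 had 250, 324 and 377 CPM in activated libraries, against 189, 304 and 288 CPM in resting libraries. The groups then overlapped, at a log2 difference of 0.29 (SE 0.19, edgeR adjusted p = 0.225). Exon counts gave 0.34 (SE 0.18, edgeR adjusted p = 0.132). In the intersection-nonempty column 8 of the 10 members rose, where 24.3% of all genes did (45.5% changed in either direction), and Srsf3 and Srsf4 did not pass the test. Among all exon counts 8 members also rose, where 24.2% of all genes did (46.1% in either direction).

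**Figure D4:**
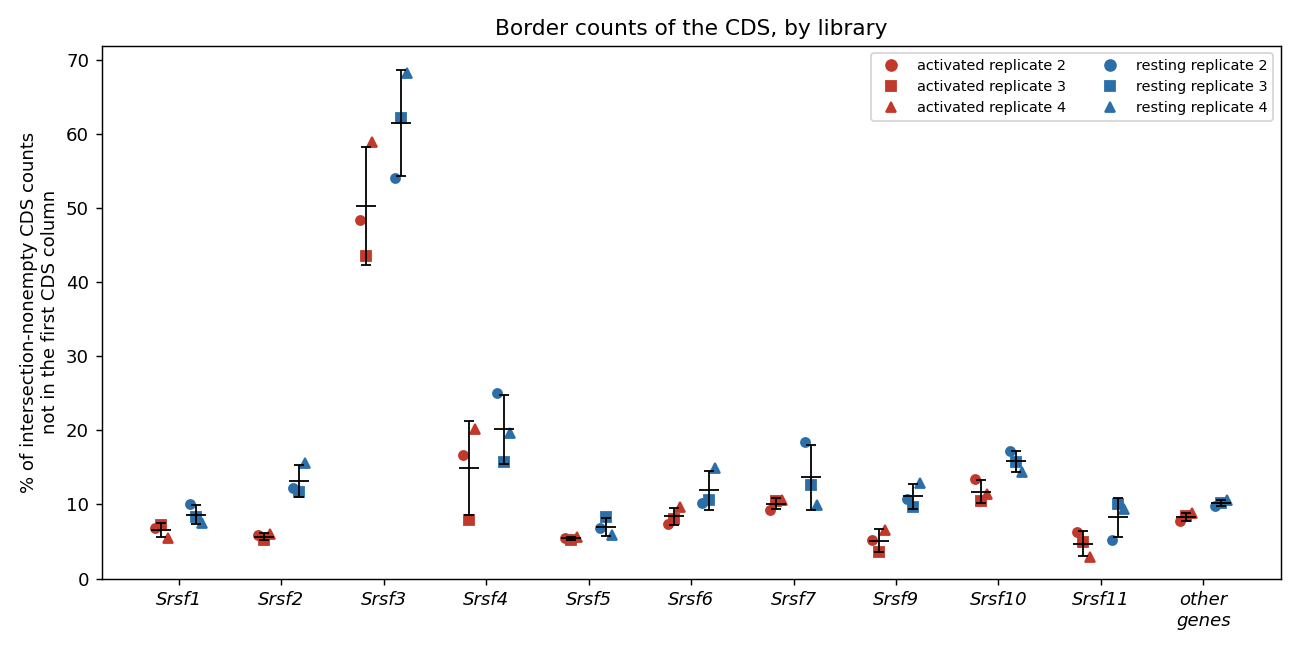
Border counts, as percent of the intersection-nonempty CDS counts of a gene, by library, activated in red and resting in blue, with bars for mean ± SD over 3 libraries. Srsf3 lies between 43.5% and 68.2% in every library, while all other genes summed lie between 7.73% and 10.6%.

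Relative to the first CDS column, border counts were compared between the groups in 1 edgeR model of border counts and first-column counts. That comparison was added after these values had been seen. None of the 10 members passed the test, where 0.0606% of all 6596 genes did (4 genes, and 527 at an unadjusted p under 0.05). All 10 had a lower mean border share in activated cells, as all other genes summed also did without overlap. In 6 of the 10 members every activated library was below every resting one, as in 12.1% of 6016 genes with at least 100 counts. Srsf2 had the lowest unadjusted p of the members. Its border counts were 5.86%, 5.18% and 5.96% of the column in activated libraries, against 12.2%, 11.7% and 15.6% in resting libraries. The log2 change relative to the CDS was -1.24 (SE 0.30, edgeR adjusted p = 0.172, unadjusted 0.000336), with a median of -0.23 over all genes tested.

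In the leader of the mRNA, the 5' UTR, footprints were also more numerous on SR genes in activated cells. The 5' UTR had counts on every member but Srsf11, which had 0 in all 6 libraries. Of the 6 members with enough 5' UTR counts to be tested (Srsf1, Srsf2, Srsf3, Srsf5, Srsf6 and Srsf7), 5 rose, where 22.2% of the 2200 genes tested rose and 19.8% fell (42% together). Srsf1 had 13, 23 and 25 leader counts in activated libraries, against 2, 4 and 8 in resting libraries. It met the low-count filter only through its activated libraries, so its rise is not independent of that filter. The log2 change was 1.99 for Srsf6 (SE 0.37, edgeR adjusted p = 0.000655), 1.76 for Srsf2 (SE 0.23, edgeR adjusted p = 4.56e-05) and 1.54 for Srsf1 (SE 0.40, edgeR adjusted p = 0.00730). It was 0.96 for Srsf7 (SE 0.29, edgeR adjusted p = 0.0151) and 0.64 for Srsf5 (SE 0.21, edgeR adjusted p = 0.0217), while Srsf3, at 0.66 (SE 0.32, edgeR adjusted p = 0.115), did not pass. With library totals alone 3 members passed, and without resting replicate 2, 3 or 4 there were 3, 2 and 3. The calls of Srsf2 and Srsf6 held in each of the 13 alternatives run.

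Srsf2 and Srsf5 had the most leader counts. Srsf2 had 124, 242 and 253 counts there in activated libraries, against 26, 49 and 48 in resting libraries. Srsf5 had 129, 166 and 205 in activated libraries, against 56, 85 and 77 in resting libraries. Set against the first CDS column, Srsf5 had 39.3 and Srsf3 had 39.1 leader counts per 100 CDS counts over all libraries. The value of Srsf3 rests on that column: per 100 counts of the intersection-nonempty column, a setting added after seeing the data, Srsf5 had 36.9, Srsf2 had 25.4, Srsf6 had 20.3 and Srsf3 had 17.1. The median over 5759 genes with at least 100 CDS counts was 8.11, and 14.7% of them were above Srsf5. The ratio carries no correction for leader or coding length, so comparisons of it between genes depend on those lengths too. By the first column Srsf2 had 27.4 and Srsf6 had 22.3, while Srsf1, Srsf4, Srsf9, Srsf10 and Srsf11 were below that median.

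Per 100 CDS counts, Srsf5 had 57.1, 40.2 and 42.0 leader counts in activated libraries, against 31.6, 32.1 and 29.7 in resting libraries. That was 1 of the 10 members with higher ratios and no overlap, a share near the 12% of 5754 genes with at least 100 CDS counts. In 1 model over both regions its log2 change relative to the CDS was 0.27 (SE 0.25, edgeR adjusted p = 0.821), with a median of 0.08 over all genes, each region having its own scaling. None of the 9 members tested changed in that model, where 0.0955% of 6282 genes did (6 genes, and 556 at an unadjusted p under 0.05). For Srsf6 the ratio was 40.5, 17.9 and 18.6 in activated libraries, against 15.5, 9.90 and 28.8 in resting libraries, so that 1 library of each group was far above the rest. All other genes summed had 20.01, 15.1 and 14.3 in activated and 14.2, 15.5 and 14.0 in resting libraries, and the same activated replicate 2 was highest there.

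**Figure D5:**
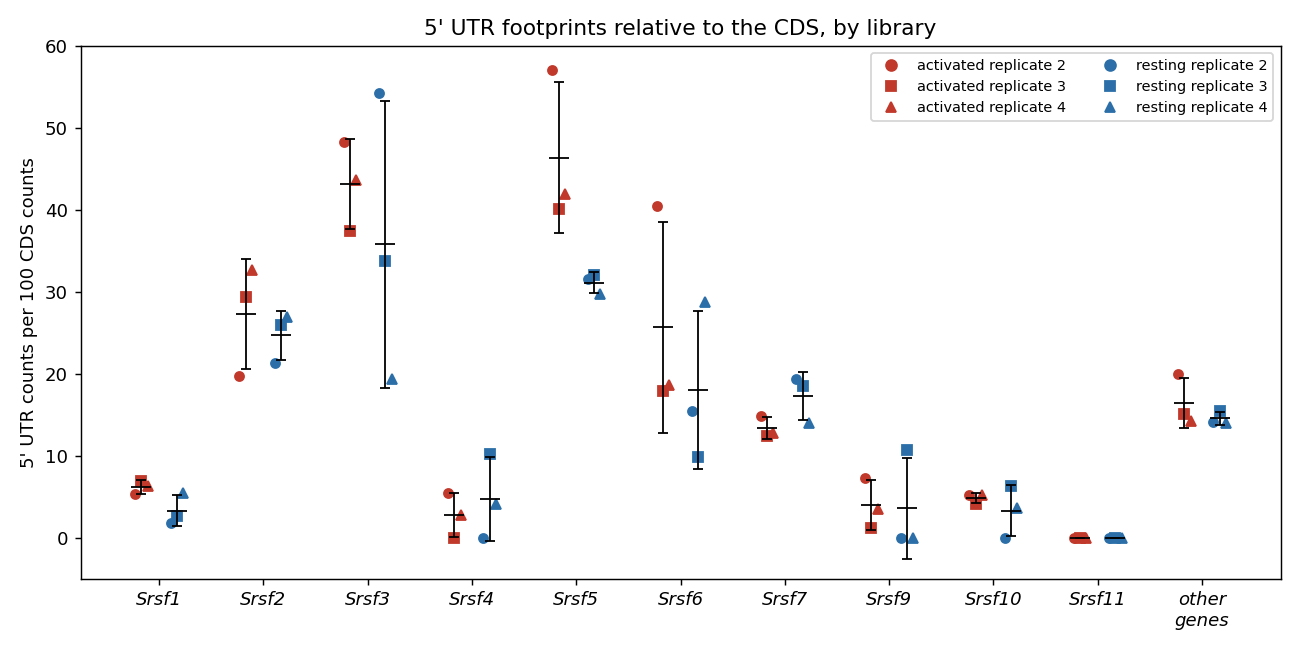
Leader (5' UTR) footprints for every 100 in the CDS, for each SR gene and for all other genes summed, by library, activated in red and resting in blue, with bars for mean ± SD over 3 libraries. The ratio ranges from 0 for Srsf11 to 57.1 for Srsf5 in activated replicate 2.

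Intronic counts were few, and none of the members passed the low-count filter of the intronic test, in which 17% of 393 genes changed. The 10 genes had 33, 28 and 32 intronic counts in activated libraries, against 40, 19 and 30 in resting libraries, while their CDS counts were higher in every activated library. This was 1.18 ± 0.401 intronic counts per 100 CDS counts in activated and 3.14 ± 1.62 in resting cells (SD, n = 3). The groups were barely apart, with a highest activated value of 1.64 and a lowest resting value of 1.71. The share of all genes without overlap in this ratio was not worked out. All other genes summed had 8.20 ± 1.85 in activated and 16.96 ± 7.98 in resting cells, with overlap. Over all libraries Srsf5 had 45 intronic counts, Srsf11 had 43, Srsf9 had 30, Srsf4 had 29 and Srsf3 had 20, and each of the other 5 had at most 5.

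Among the 5 members with at least 20 intronic counts, Srsf3 and Srsf9 had the log2 changes relative to the CDS that were largest in size. Srsf3 had 1, 0 and 2 intronic counts in activated libraries, against 8, 5 and 4 in resting libraries, the opposite order to its CDS. Relative to the CDS its log2 change was -3.29 (SE 1.01, edgeR adjusted p = 0.221, unadjusted 0.00668). Srsf9 had 17, 7 and 3 intronic counts in activated libraries, against 1, 0 and 2 in resting libraries, with a log2 change relative to the CDS of 1.64 (SE 1.13, edgeR adjusted p = 0.731). Per 100 CDS counts these were 30.9, 8.54 and 3.53 in activated libraries, against 4.00, 0 and 7.41 in resting libraries, with overlap. With no low-count filter Srsf9 was the only member to pass in intronic counts alone, where 1.14% of 7257 genes rose and 1.45% changed in either direction (log2 change 2.91, SE 0.76, edgeR adjusted p = 0.0145), and 17 of its 27 activated counts lay in replicate 2. Relative to the CDS Srsf7 had a log2 change of -3.73 on only 5 intronic counts (SE 1.27, edgeR adjusted p = 0.271). None of the 7 members tested relative to the CDS passed, nor did any of 2157 genes, of which 207 had an unadjusted edgeR p under 0.05. With at least 20 counts asked of each region 45 genes passed, none of them a member. In the 3' UTR none of the members passed the low-count filter, and 29% of the 131 genes left changed.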

How the data were processed

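The authors deposited 1 table of raw counts per gene, with 36 count columns, 6 per library: CDS in 2 counting modes, 5' UTR, 3' UTR, exon and strictly intronic counts, per the file headers. Per the submitters' processing notes, the tools were TopHat2 2.0.13, Bowtie 1.1.1.0 and HTSeq on mm10. The annotation, strand setting, fragment lengths and counting mode of the first CDS column were not given in the sources used here. Between 65.8% and 79.6% of each library's records had no unique alignment and 11.8% to 14.5% lay in no CDS; these rows name no gene and were left out of totals and tests.

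Columns were tied to libraries through the tag in each sample's description. The first CDS column was the main count. All genes were fitted with edgeR 4.0.16 in R 4.3.3 (filterByExpr, TMM, glmQLFit and glmQLFTest, all two-sided). Adjusted p-values are Benjamini-Hochberg values across every gene tested, called under 0.05. SEs are the log2 change over the square root of F. Ratios of 2 regions used 1 edgeR model with a term per library, the region, and the region in activated cells, for genes with at least 5 counts in each region. DESeq2 1.42.0 and limma 3.58.1 were alternatives. The scripts were tested on simulated counts. No 2 libraries held identical counts. All 10 members are named throughout. The members and lists were chosen with earlier results of these data known. Lists of other splicing genes and cell type markers were set by symbol and could not be matched (0 of 22322 IDs).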

Additional observations from a re-analysis of the deposited data

How the results depend on the processing

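The count of members that rose in the CDS was 9, and 7 to 9 under the 16 alternatives run (8 with upper quartile factors, 7 with library totals alone, 8 in DESeq2, 9 in limma voom, 8 in the intersection-nonempty column, 8 in exon counts, 7 at an adjusted p under 0.01), with 0 lower in each. Leaving out each library gave 7 to 9. In 5' UTR counts 5 members rose, 3 with library totals alone and 2 to 6 without each library, the 6 including Srsf3 without activated replicate 2 (edgeR adjusted p = 0.0274). Srsf1 lost its 5' UTR call without resting replicate 2 or 3 (adjusted p = 0.0503 and 0.0651), Srsf7 without resting replicate 3 or 4 (0.0799 and 0.0888) and with library totals alone (0.0503), and Srsf5 in 6 of 13 alternatives (up to 0.125). In intronic counts 0 members passed and 1 (Srsf9) with no low-count filter. The log2 change of Srsf4 in the CDS was -0.15 with library totals alone, not past the threshold. The difference in the family's share of CDS counts came to 0.157 percentage points (range 0.132 to 0.176 on leaving out 1 library). The cause of these changes was not tested. The 5' UTR, intronic and border ratios gave 0 members in every alternative run.

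The replicate numbers do not settle a pairing: libraries with 1 number deviated from their groups together with correlations across genes of 0.13, 0.07 and 0.22 for replicates 2, 3 and 4, and libraries of different numbers had -0.15 to 0, so each correlated best with its own number. With a replicate block 9 members rose in the CDS and 5 in the 5' UTR, and 0 passed in introns, the 3' UTR or any ratio. With every library kept, low counts kept every member out of the intronic and 3' UTR tests that used the low-count filter. On leaving out 1 library, 1 to 3 members entered the intronic test, and 0 passed.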

Other observations

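The 3' UTR held few counts of SR genes. The 10 members had 23, 15 and 14 counts there in activated libraries, against 16, 7 and 8 in resting libraries, and Srsf9 had 0 in all 6. None passed the low-count filter, which left 131 genes. Per 100 CDS counts this was 0.687 ± 0.396 in activated and 1.11 ± 0.734 in resting cells (SD, n = 3), with overlap, while all other genes summed had 2.67 ± 1.49 in activated and 3.20 ± 1.15 in resting cells.

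Of the 5' UTR counts of a library, the 10 members held 0.446%, 0.455% and 0.461% in activated libraries, against 0.229%, 0.234% and 0.226% in resting libraries. This share varied less among activated libraries than the CDS share of the same genes, which ranged from 0.306% to 0.394%.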
